A study of Homo sapiens with 6 samples.

Results

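The integrins and laminins are 38 of the 27745 genes in the count table of this RNA-seq experiment. They were defined by a rule on gene symbols, and no measured value entered that rule. They are 18 integrin α genes (ITGA), 8 integrin β genes (ITGB) and 12 laminin chain genes. The laminin chains are 5 LAMA, 4 LAMB and 3 LAMC. The genes, and the lists of other genes used below, were chosen with earlier results of these data known. The cells were MDA-MB231, a triple-negative breast cancer line, which lacks estrogen receptor, progesterone receptor and amplified HER2. They were infected with lentivirus carrying sh-TRC (the control hairpin), sh-MIR100HG-1 or sh-MIR100HG-2, and by the study's methods infected cells were collected for RNA after 72 h. Each of the 3 groups had 2 samples, both shRNA groups and the control derive from the same line, and both hairpins target the long non-coding RNA MIR100HG. Replicates of the shRNA groups are named as biological in the study, yet with 2 samples a group every p-value below measures only the spread between these samples.

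Integrins are transmembrane receptors made of an α chain and a β chain, and the pair decides which matrix protein is bound. Laminins are secreted trimers of an α, a β and a γ chain that form the sheet-like core of basement membranes, and several integrins, in particular α3β1, α6β1 and α6β4, bind them. LAMA3 and LAMB3 are chains of an epithelial laminin that anchors cells through α6β4 in hemidesmosomes.

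MIR100HG itself had lower values with both hairpins. It was at 41.9 and 58.5 CPM (counts scaled to the library size by edgeR's TMM method) in the controls, at 15.2 and 13.2 CPM with sh-MIR100HG-1, and at 16.6 and 10.4 CPM with sh-MIR100HG-2. Neither control overlapped any knockdown sample. The fitted log2 fold change (log2FC) was -1.86 (SE 0.25), with an unadjusted p of 5.6e-05 and a Benjamini-Hochberg adjusted p of 0.381 in edgeR's quasi-likelihood test. The hairpins match adjacent places of the MIR100HG gene on the minus strand of chromosome 11 (GRCh37), at chr11:121962132-121962152 and chr11:121961961-121961981. Their 21-base targets are shown because results for the 2 hairpins are set apart below:
sh-MIR100HG-1: ttcctctgtttgtacttaaat
sh-MIR100HG-2: gagagtgacctacagaataaa

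Total counts per sample ran from 43804736 to 64588388. The 6 genes expected to be high in this mesenchymal-like line (VIM, CD44, EGFR, AXL, CAV1 and PLAUR) lay between 176 and 2095 CPM in every sample. Of the 7 genes expected to be low, ESR1 and PGR stayed at or below 2.79 and 0.0236 CPM. CDH1, EPCAM and GATA3 stayed at or below 7.05, 13.0 and 13.0 CPM. KRT8, a keratin of simple epithelia, was at 709.8 to 1177 CPM and ERBB2 at 71.6 to 116 CPM, so KRT8 and ERBB2 went against the marker list. The 5 leukocyte markers together summed to 23.2 to 51.1 CPM, mostly LCP1, and PTPRC, which defines leukocytes, did not exceed 0.689 CPM. Of the 3 platelet markers PPBP was at 0 in every sample, and the 3 markers together reached at most 2.85 CPM. The 3 keratinocyte markers (KRT5, KRT14 and TP63) summed to 2.21 to 8.42 CPM. The 3 fibroblast markers (DCN, LUM and PDGFRB) summed to 9.33 to 19.8 CPM, with PDGFRB at 6.26 to 19.0 CPM. For endothelium, CDH5 and KDR summed to 1.88 to 16.2 CPM, with KDR at 1.72 to 16.1 CPM.

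The control cells carried a small set of abundant integrin genes. Of the 38 genes, 32 passed the filter on low counts, 21 integrins and 11 laminins. The 6 removed genes were ITGA4, ITGA8, ITGAD, ITGAL, ITGAX and LAMC3, none of which exceeded 0.12 CPM in any sample. To compare genes, CPM was divided by the exon length deposited with the counts (CPM per kb). That length covers all exons of a gene and can exceed the transcript present, so such comparisons are approximate. ITGB1, which encodes the β chain shared by most collagen, laminin and fibronectin receptors, was the highest integrin gene at 146 CPM per kb in the controls (SD 17.2, n = 2). ITGA3, the α chain of a laminin receptor, followed at 139.7 CPM per kb (SD 20.8), and the 2 levels differed by less than their spread. ITGB4, the β chain of the hemidesmosome, had 89.3 CPM per kb (SD 39.1).

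Next in order among integrins were ITGA5, the α chain of the classical fibronectin receptor, at 63.9 CPM per kb (SD 30.4), ITGA2, a collagen receptor chain, at 57.6 (SD 6.47), and ITGA6, a laminin receptor chain, at 53.5 (SD 5.8). These 3 neighbours overlapped within their spread. ITGB5 (34.4 CPM per kb) and ITGAV (12.1 CPM per kb) encode the 2 chains of a vitronectin receptor. Summed over the 18 α genes the controls had 337 CPM per kb (SD 37.9), and over the 8 β genes 282 CPM per kb (SD 27.2). The 12 α chains that pair with β1 summed to 332 CPM per kb, well above ITGB1 itself at 146.

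Some chains were present without a partner at a like level. ITGB2, the β chain of leukocyte integrins, was at 10.8 CPM per kb, while its 4 α partners (ITGAL, ITGAM, ITGAX and ITGAD) summed to 0.0624 CPM per kb. ITGAE, which pairs with β7 on intraepithelial lymphocytes, was at 4.89 CPM per kb against 0.257 for ITGB7. ITGAV had 2 abundant β partners, ITGB1 at 146 and ITGB5 at 34.4 CPM per kb. Its other β partners were low, with 0.814 CPM per kb for ITGB3, 0.107 for ITGB6 and 0.156 for ITGB8. ITGA2B, the platelet chain that pairs with β3, was at 0.0637 CPM per kb. Fewer cells with a transcript and less transcript per cell cannot be told apart in bulk RNA.

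The laminin genes were led by a β chain. LAMB3 had the highest level of all 38 genes, 209.7 CPM per kb in the controls (SD 10.3, n = 2). Its α partner LAMA3 was at 5.34 CPM per kb (SD 0.0295), over a deposited length of 13522 bases against 4749 for LAMB3. For the trimer of α5, β2 and γ1 chains, common in epithelial and vascular basement membranes, the 3 genes were closer together, with LAMC1 at 62.9, LAMA5 at 45.3 and LAMB2 at 37.6 CPM per kb. LAMB1 had 19.9 CPM per kb. The chains LAMA1, LAMA2, LAMA4 and LAMB4 lay between 0.0413 and 0.58 CPM per kb, so any trimer that needs one of these α chains had its lowest chain at 0.58 CPM per kb or less.

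**Figure D1:**
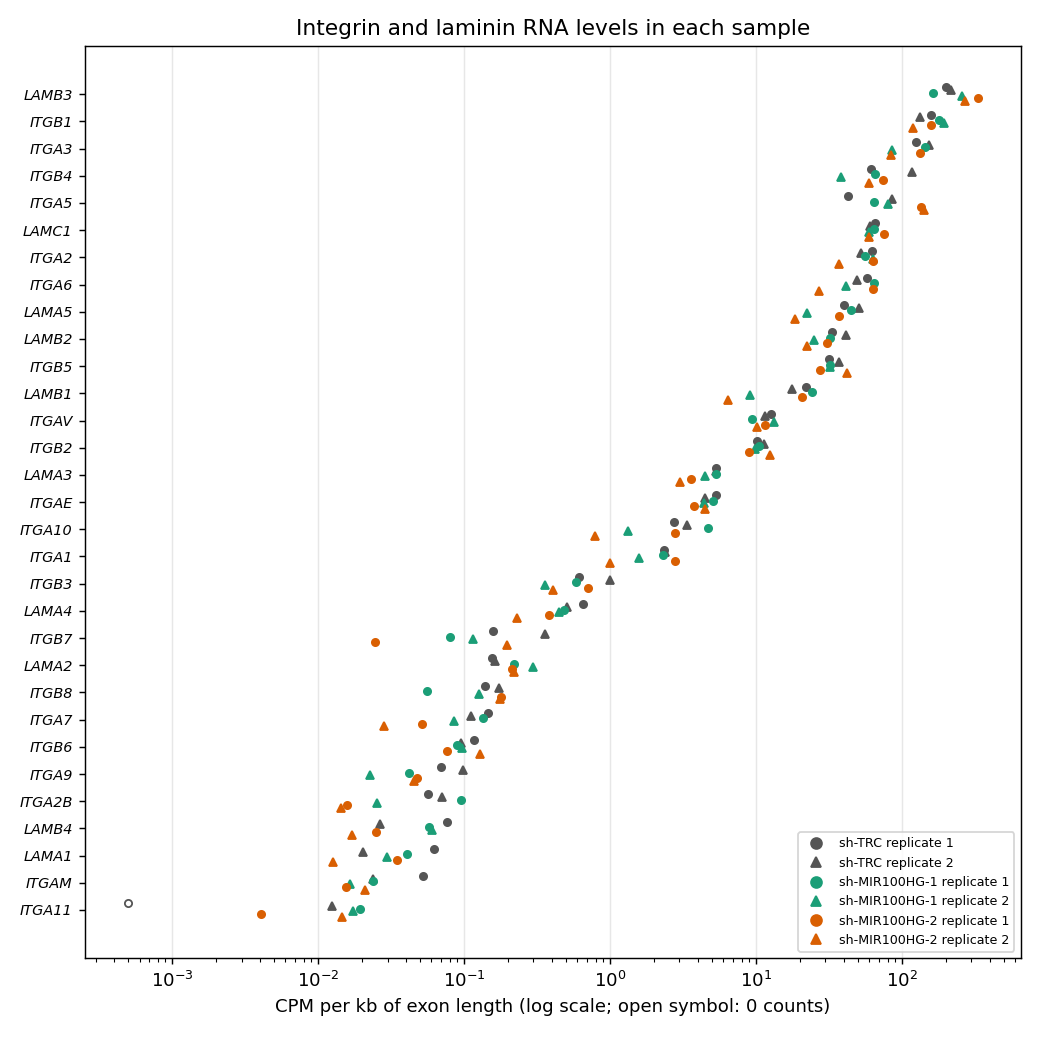
RNA level of 31 tested integrin and laminin genes in the 6 samples, in CPM per kb of exon length on a log scale, ordered by the mean of the 2 control samples; an open symbol at the left edge marks a sample with 0 counts. Control means run from 209.7 CPM per kb for LAMB3 at the top to 0.00626 CPM per kb for ITGA11 at the bottom, and ITGA5 has both sh-MIR100HG-2 samples to the right of the others.

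The knockdown comparison, which sets the mean of both hairpins against sh-TRC, called no integrin or laminin. At an adjusted p at or below 0.05 edgeR's quasi-likelihood test called 0 of the 32 genes, and 0.0% of the 15372 genes tested. At an unadjusted p under 0.05 it found 0 of 32, beside 7.68% of all genes tested (3.23% higher and 4.44% lower). DESeq2 and edgeR's likelihood ratio test called 0 of the 32 as well, beside 0.839% and 0.709% of all genes. The log2FC was above 0 in 7 of the 32 genes (21.9%), beside 45.6% of all genes, and the median was -0.31 against -0.04 for all genes. With DESeq2 size factors it was above 0 in 7 genes too, and without sh-TRC replicate 1 in 11 of the 32, beside 50.2% of all genes.

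ITGA5 had the smallest p of the 32 in that comparison, with a log2FC of 0.64 (SE 0.28, unadjusted p 0.0506, adjusted p 0.653). Its value without the first control sample was 0.23 and without the second 1.24, so the control decided its size. ITGB4 was at 417 and 791 CPM in the controls, 443 and 261 CPM with sh-MIR100HG-1, and 504 and 406 CPM with sh-MIR100HG-2. The first control lay among the knockdown samples and the second above them. The log2FC of ITGB4 was -0.59 (SE 0.3, adjusted p 0.68), and -0.06 without the second control.

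The remaining abundant integrin genes had intervals that held 0. ITGB1 was at 949 and 803 CPM in the controls, 1085 and 1171 CPM with sh-MIR100HG-1, and 947 and 717 CPM with sh-MIR100HG-2. Both sh-MIR100HG-1 samples lay above the controls and the sh-MIR100HG-2 samples did not. The log2FC was 0.15, with a 95% interval from -0.29 to 0.58.

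ITGA3 was at 1225 and 1513 CPM in the controls, 1409.9 and 835 CPM with sh-MIR100HG-1, and 1315 and 825 CPM with sh-MIR100HG-2. In each hairpin group one sample lay within the range of the controls and the other under it, and the log2FC was -0.32 (95% interval from -0.94 to 0.3). ITGA2 was at 492 and 419 CPM in the controls, 443 and 503 CPM with sh-MIR100HG-1, and 499 and 294 CPM with sh-MIR100HG-2, a log2FC of -0.07 (SE 0.24). ITGA6 was at 376 and 323 CPM, then 421 and 273 CPM, then 418 and 176 CPM in the same order of groups, a log2FC of -0.12 (SE 0.34). For both genes the groups overlapped.

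LAMC1, the laminin γ chain of most trimers, had one of the narrower intervals. It was at 551 and 506 CPM in the controls, 542 and 502 CPM with sh-MIR100HG-1, and 630 and 501 CPM with sh-MIR100HG-2, a log2FC of 0.04 with a 95% interval from -0.37 to 0.45. LAMA5 was at 575 and 727 CPM in the controls, 639.8 and 321 CPM with sh-MIR100HG-1, and 531 and 268 CPM with sh-MIR100HG-2. The second sample of each hairpin lay far under the first, and the log2FC of LAMA5 was -0.57 (SE 0.34, adjusted p 0.725).

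In 5 of the 32 genes (15.6%) no knockdown sample overlapped the controls and all lay to one side, beside 17.5% of all genes tested. They were 1 higher gene, beside 8.4% of all genes, and 4 lower genes (12.5%), beside 9.08%. LAMB2, a β chain of vascular and neuromuscular basement membranes, was at 229.7 and 286 CPM in the controls, 221 and 173 CPM with sh-MIR100HG-1, and 211 and 154 CPM with sh-MIR100HG-2. LAMA2, the muscle laminin chain, was the only one of the 5 with higher values, at 1.58 and 1.65 CPM in the controls, 2.21 and 3.0 CPM with sh-MIR100HG-1, and 2.16 and 2.24 CPM with sh-MIR100HG-2. The log2FC was -0.44 (SE 0.21, adjusted p 0.671) for LAMB2 and 0.57 (SE 0.35, adjusted p 0.743) for LAMA2. ITGA9, a receptor chain for tenascin and osteopontin, was at 0.577 and 0.816 CPM in the controls and between 0.189 and 0.397 CPM in the knockdown samples (log2FC -1.1, SE 0.49, adjusted p 0.665). ITGAM, a leukocyte chain, rested on at most 16 counts in any sample (log2FC -0.95, SE 0.64), and its value was -0.29 without sh-TRC replicate 1. Of the 5 leukocyte markers, the 3 tested did not share a direction, with a log2FC of -1.44 for PTPRC, -0.63 for CD14 and 0.39 for LCP1. All 5 summed to 23.2 to 43.3 CPM in the controls, 42.5 to 42.8 CPM with sh-MIR100HG-1 and 24.4 to 51.1 CPM with sh-MIR100HG-2. Their part in the ITGAM value was not tested. The fifth gene, LAMA4, is described below with sh-MIR100HG-2.

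**Figure D2:**
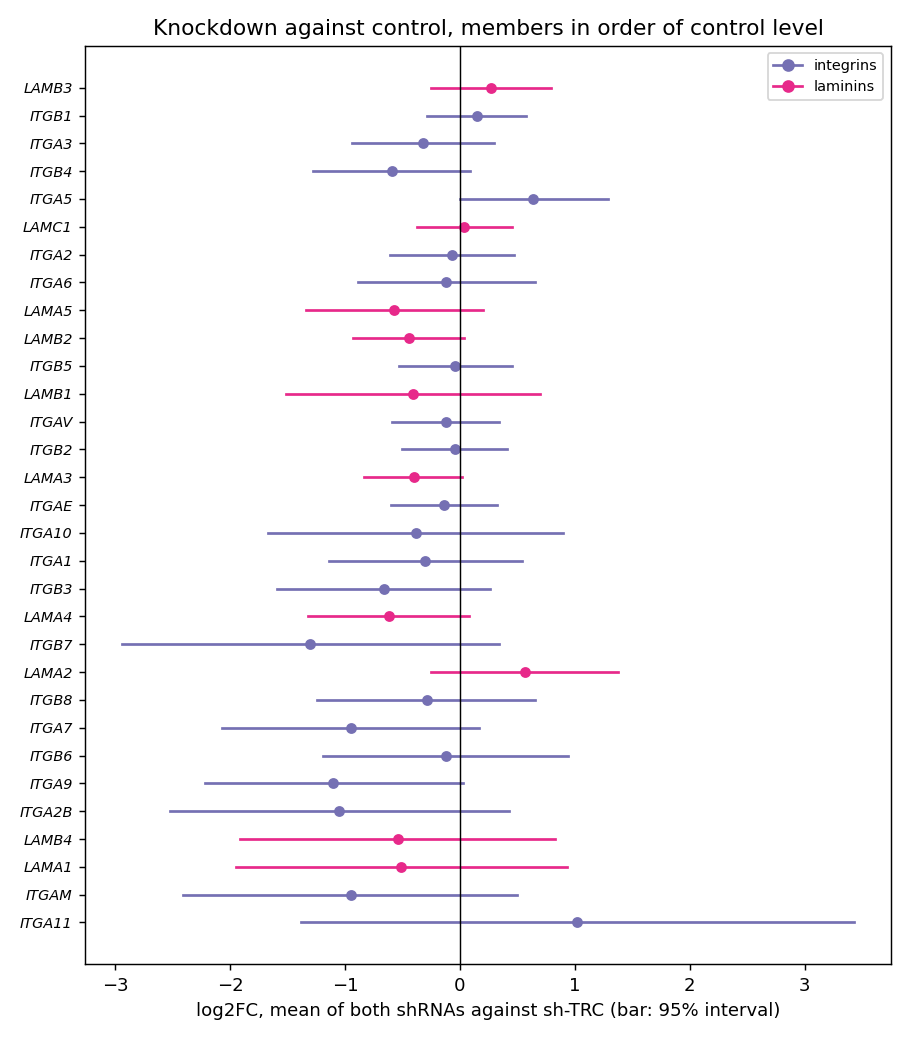
log2FC of the mean of both hairpins against sh-TRC for 31 tested genes, from the highest control level at the top to the lowest at the bottom. Bars are 95% intervals derived from the statistic of edgeR's quasi-likelihood test. Every interval reaches 0, 25 of the 31 points lie below 0, and the intervals widen toward the genes of low level.

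Each hairpin was also set against sh-TRC by itself. In that comparison sh-MIR100HG-1 had 0 of 32 genes at an unadjusted p under 0.05, beside 6.87% of all genes (3.1% higher and 3.77% lower), and sh-MIR100HG-2 had 6 of 32 (18.8%), beside 8.86%. Both comparisons use the same 2 control samples. At the adjusted p edgeR called 0 of 32 in each, and 0.0% of all genes, and the smallest adjusted p among the 32 was 0.72 in the first comparison and 0.498 in the second. Contrasting the hairpins directly, sh-MIR100HG-2 over sh-MIR100HG-1, gave 5 of 32 (15.6%) at an unadjusted p under 0.05, beside 9.45% of all genes. They were 2 higher genes (6.25% beside 3.34%) and 3 lower ones (9.38% beside 6.12%), with 0 of 32 at the adjusted p, where 0.0% of all genes were called.

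The higher genes among the 6 made up 6.25% of the 32, beside 3.71% of all genes, and included ITGA5. ITGA5 (ENSG00000161638, chr12:54789045-54813244, minus strand, GRCh37) was at 322 and 647 CPM in the controls, 486 and 610.3 CPM with sh-MIR100HG-1, and 1024 and 1068 CPM with sh-MIR100HG-2. Both sh-MIR100HG-2 samples lay above the other 4, and the sh-MIR100HG-1 samples lay within the range of the controls. The log2FC was 1.11 for sh-MIR100HG-2 against control (SE 0.32, unadjusted p 0.00802, adjusted p 0.498), 0.18 for sh-MIR100HG-1 (SE 0.32), and 0.93 between the hairpins (SE 0.32, adjusted p 0.509). Without the first control the sh-MIR100HG-2 value was 0.69, and without the second it was 1.70.

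LAMB3 was at 961 and 1030.3 CPM in the controls, 772 and 1236 CPM with sh-MIR100HG-1, and 1580.1 and 1283 CPM with sh-MIR100HG-2. The sh-MIR100HG-2 samples were the highest of the 6, the second by little, and for the mean of both hairpins the log2FC was 0.27 (SE 0.23, adjusted p 0.826). Its α partner went the other way. LAMA3 (ENSG00000053747, chr18:21269407-21535030, plus strand, GRCh37) was at 72 and 72.5 CPM in the controls, 72.7 and 60.5 CPM with sh-MIR100HG-1, and 48.4 and 41.1 CPM with sh-MIR100HG-2. The sh-MIR100HG-2 samples lay below the other 4. The log2FC was -0.69 against control (SE 0.22, unadjusted p 0.0122, adjusted p 0.498), -0.12 for sh-MIR100HG-1 (SE 0.22), and -0.57 between the hairpins (SE 0.22, adjusted p 0.509).

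The other lower genes with sh-MIR100HG-2 were LAMA4, ITGA7 and ITGA2B, which with LAMA3 make 12.5% of the 32 beside 5.15% of all genes. LAMA4, a laminin chain of vessels and mesenchyme, was at 7.56 and 5.88 CPM in the controls, 5.6 and 5.2 CPM with sh-MIR100HG-1, and 4.45 and 2.66 CPM with sh-MIR100HG-2. The 3 groups followed each other downward without overlap, and the log2FC was -0.92 for sh-MIR100HG-2 (SE 0.37, unadjusted p 0.0348, adjusted p 0.545) and -0.31 for sh-MIR100HG-1 (SE 0.36).

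ITGA7, a laminin receptor chain of muscle, and ITGA2B rested on few counts. ITGA7 had 50 and 42 counts in the controls, 57 and 23 with sh-MIR100HG-1, and 15 and 9 with sh-MIR100HG-2, with a log2FC of -1.68 for sh-MIR100HG-2 (SE 0.61, adjusted p 0.526) and -1.46 between the hairpins (SE 0.61, adjusted p 0.509). ITGA2B had 17 and 23 counts in the controls, 35 and 6 with sh-MIR100HG-1, and 4 and 4 with sh-MIR100HG-2, with a log2FC of -2.05 (SE 0.83, adjusted p 0.545) and -2.0 between the hairpins (SE 0.83, adjusted p 0.509), the latter -0.74 without sh-MIR100HG-1 replicate 1. In both the sh-MIR100HG-2 samples were the lowest of the 6. For ITGA2B the 2 samples of sh-MIR100HG-1 lay on either side of the controls.

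**Figure D3:**
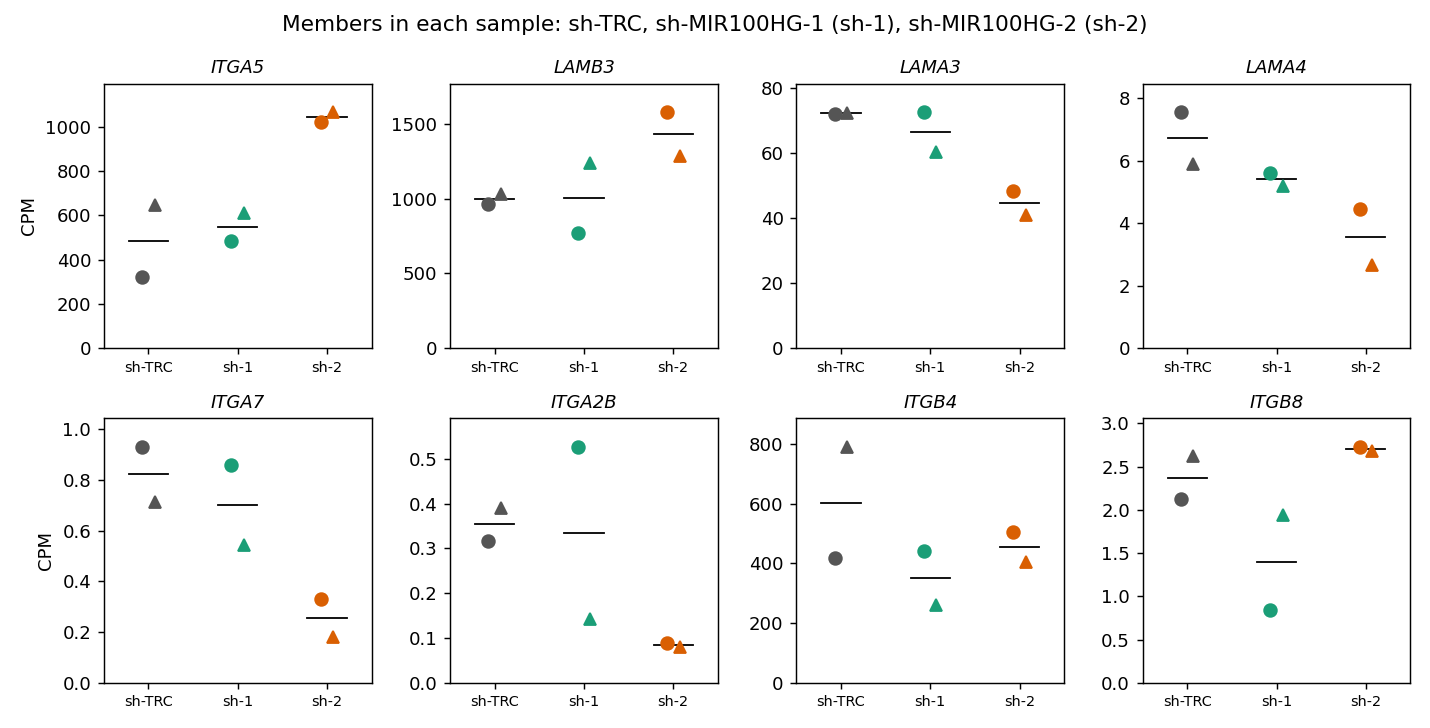
CPM of 8 genes in each sample, on linear axes that start at 0, with sh-TRC, sh-MIR100HG-1 and sh-MIR100HG-2 from left to right; circles are replicate 1, triangles replicate 2 and bars the group mean of 2 samples. ITGA5 and LAMB3 are highest, and LAMA3, LAMA4, ITGA7 and ITGA2B lowest, in the sh-MIR100HG-2 samples, while the first ITGB4 control lies among the knockdown samples and ITGB8 differs between the hairpins.

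The make-up of the receptor RNA differed accordingly between the groups, as a description with no test. ITGA5 made up 13.7% and 23.5% of the summed CPM per kb of α genes in the controls, 18.3% and 27.6% with sh-MIR100HG-1, and 32.4% and 46.1% with sh-MIR100HG-2. ITGA3 made up 40.2% and 42.4%, then 41.0% and 29.2%, then 32.1% and 27.5%. The 2 shares are parts of one sum, so one cannot grow without the rest of that sum shrinking. ITGB1 made up 52.3% of the β genes on average in the controls, 66.4% in the first hairpin group and 54.6% in the second.

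**Figure D4:**
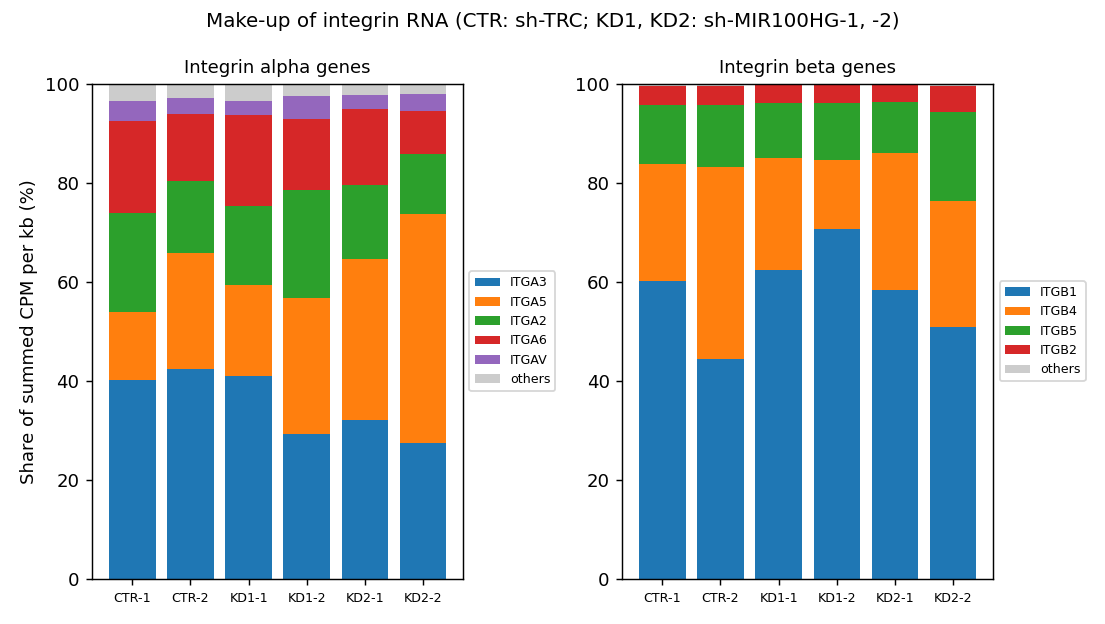
Share of each gene in the summed CPM per kb of the integrin α genes and of the integrin β genes (percent), with one stacked bar per sample (CTR is sh-TRC, KD1 is sh-MIR100HG-1, KD2 is sh-MIR100HG-2). The ITGA5 part is widest in the KD2 samples, at 32.4% and 46.1%.

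The 2 samples of one hairpin often differed in these genes. Among the 23 genes with a mean of 100 or more counts, the median absolute log2 difference between replicates was 0.48 within sh-MIR100HG-1, where that of all genes as abundant was 0.27, and 0.46 within sh-MIR100HG-2, where it was 0.33. In the controls it was 0.25, where that of all such genes was 0.28. In 12 of the 23 the second sample was lower in both hairpin groups, a count for which no share of all genes was taken. In 6 of the 23 (ITGA10, ITGA6, LAMB1, ITGB3, ITGA3 and LAMA5) the second sample was lower by over 1.5 times in both, 26.1% beside 6.65% of 11844 genes.

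LAMB1, a β chain of widespread laminins, was among them, with 197 and 73.9 CPM for sh-MIR100HG-1 and 168 and 52.2 CPM for sh-MIR100HG-2, against 179.7 and 144 CPM in the controls. ITGA10, a collagen receptor chain of cartilage, was at 29.8 and 8.38 CPM, then 17.8 and 4.97 CPM, against 17.3 and 21.2 CPM in the controls. The labels give no date, batch or lane that separates first from second samples. Over all genes tested, deviations from group means correlated at 0.619 between the hairpin groups. Fits with the replicate number as a block are given at the end. The part of a date, batch or lane in the values was not tested.

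**Figure D5:**
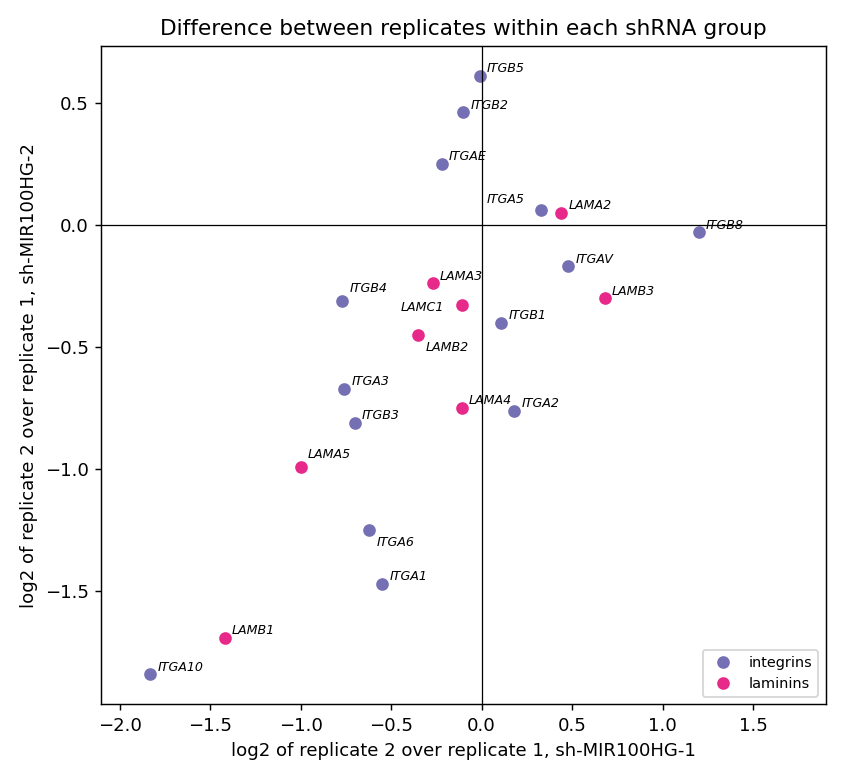
log2 ratio of replicate 2 over replicate 1 within sh-MIR100HG-1 (horizontal) and within sh-MIR100HG-2 (vertical) for 22 integrin and laminin genes with a mean of 100 or more counts. ITGA10 and LAMB1 lie lowest in both groups, and ITGB5 lies highest for sh-MIR100HG-2.

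The sequence around some starts and ends of these genes is given as context for the hairpin and for the microRNAs of the locus, since MIR100HG is the host transcript of miR-100, let-7a-2 and miR-125b-1. Mature microRNAs were not measured in these libraries. By qPCR the study saw no change of these microRNAs when MIR100HG was overexpressed, in this line and in a second one. It proposes that MIR100HG did not act through them in triple-negative cells. The mature forms from RefSeq, with the seed (bases 2 to 8) in capitals, are:
hsa-miR-125b-5p: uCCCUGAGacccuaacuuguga
hsa-let-7a-5p: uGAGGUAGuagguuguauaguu
hsa-miR-100-5p: aACCCGUAgauccgaacuugug

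A site was counted where the 7 bases that pair with the seed occur in the 3′UTR of the canonical transcript. The miR-125b letters were in 7 of the 32 tested genes (21.9%), beside 16.1% of 13926 genes with such a UTR. The let-7a letters were in 4 of 32 (12.5% beside 10.8%), and those of miR-100 in 1 of 32, LAMA5 (1.28% of all). Other genes with the miR-125b letters included ITGA9, ITGAM, ITGB3 and ITGB5, and ITGB3 also held the let-7a letters. Sites in ITGA7, LAMA5 and ITGB8 are shown as examples, with the matching bases in capitals. They lie at chr12:56078704-56078730 (minus strand) for ITGA7, chr20:60884280-60884306 (minus strand) for LAMA5 and chr7:20451216-20451242 (plus strand) for ITGB8, in GRCh37:
ITGA7, miR-125b: gatcggcttcCTCAGGGgcacagacct
LAMA5, miR-100: ctctaagctcTACGGGTgacagatctt
ITGB8, let-7a: caatatcatgCTACCTCttgaatcttt
ITGA7, with a miR-125b match, had its lowest values with sh-MIR100HG-2, and LAMA5, with a miR-100 match, had lower values in the second sample of each hairpin. ITGA9 and ITGAM, also with miR-125b matches, were lower in every knockdown sample, while ITGB3 and ITGB5 overlapped the controls. A match is a description of letters and whether it acts was not tested.

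The seed of each hairpin's guide, taken as the reverse complement of its target, was searched in the same way. The sh-MIR100HG-1 letters were in 9 of the 32 genes (28.1%, beside 19.2% of all genes), ITGA1, ITGA2, ITGA11, ITGB1, ITGB3, ITGB5, ITGB8, LAMA4 and LAMB4. Both sh-MIR100HG-1 samples lay below the controls in ITGA1, ITGB3, ITGB8 and LAMA4, and above them in ITGA11 and ITGB1. The sh-MIR100HG-2 letters were in 9 of the 32 (28.1%, beside 20.3%), ITGA2, ITGA9, ITGA10, ITGA11, ITGAV, ITGB3, LAMA5, LAMB1 and LAMC1. Of these, LAMA5 and ITGA9 had both sh-MIR100HG-2 samples below the controls, and the rest overlapped them. ITGB8 held 4 matches to the sh-MIR100HG-1 guide in its 5757-base 3′UTR and none to the other. ITGB1 held 1 match to the same guide, and its values with sh-MIR100HG-1 were the highest of the 6 samples. ITGA5 and LAMA3 held no match to either guide. Whether any of these matches acts was not tested.

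Promoters were available from RefSeq for 26 of the 38 genes, as 33 windows from 250 bases before to 50 after a start. The AP-1 letters TGANTCA, which read alike on both strands, were in 3 of the 33 windows (9.09%, beside 7.71% of 35116 windows), those of ITGA5, LAMA3 and LAMB3. They are shown because these are 3 of the genes with the outermost values in the sh-MIR100HG-2 samples, with the match in capitals, at chr12:54813040-54813066 (minus strand), chr18:21452849-21452875 and chr18:21452905-21452931 (plus strand) and chr1:209824770-209824796 (minus strand), in GRCh37:
ITGA5, 6 bases before the start: ctccccgcgtTGAGTCAttcgcctctg
LAMA3, 125 bases before an internal start: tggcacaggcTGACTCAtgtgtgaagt
LAMA3, 69 bases before the same start: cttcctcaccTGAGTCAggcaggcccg
LAMB3, 67 bases before the start: tcagccactcTGACTCAttcactttgg
ITGA5 and LAMB3 had their highest values, and LAMA3 its lowest, in those samples, and whether the letters act was not tested. The GC box GGGCGG was in 19 of the 33 windows (57.6% beside 45.0%), from 14 genes that also included ITGA5, LAMA3 and LAMB3. The TEAD letters GGAATG were in 4 windows (12.1% beside 14.0%), 1 of them that of ITGA5. TATAAA was in 2 (6.06% beside 11.5%) and the E-box CACGTG in 1 (3.03% beside 7.26%). Each was searched on both strands.

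The genes around integrins and laminins were counted from lists of their known partners and of other matrix genes. The comparison was again the knockdown against control, with 0 called at the adjusted p in each list. The counts at an unadjusted p under 0.05 stand beside 3.23% of all genes for higher and 4.44% for lower values. Of 25 adaptors that link integrins to actin, 1 was higher at an unadjusted p under 0.05, FERMT2 (kindlin-2, an integrin activator), at 120.4 and 98.8 CPM in the controls and 134 to 238 CPM after knockdown (log2FC 0.78, SE 0.26, adjusted p 0.56). Of 30 signalling genes, RAPGEF1 was higher (log2FC 0.59, adjusted p 0.609) and VAV2 lower (log2FC -0.74, adjusted p 0.546), both of them exchange factors of small GTPases. The medians of these lists were 0.08 and 0.17, against -0.04 for all genes.

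Among the partners of laminins in the basement membrane, 3 of 18 genes tested had a log2FC above 0, beside 45.6% of all genes, with a median of -0.4. Among the laminins themselves it was above 0 in 4 of 11. The median of the partners was -0.22 without sh-MIR100HG-2 replicate 2. The 3 partners at an unadjusted p under 0.05 were lower, beside 4.44% of all genes. COL18A1, a basement membrane collagen, was at 139.9 and 208 CPM in the controls, 98.2 and 80.5 CPM with sh-MIR100HG-1, and 85.3 and 91.7 CPM with sh-MIR100HG-2 (log2FC -0.97, SE 0.21, adjusted p 0.439), with every knockdown sample under the lower control. HSPG2, the proteoglycan perlecan, had a log2FC of -0.81 (SE 0.26, adjusted p 0.554) and COL15A1 -0.94 (SE 0.33, adjusted p 0.578). Of 17 other matrix genes tested, EFEMP2 (log2FC -1.19, SE 0.27, adjusted p 0.444) and FBLN1 (log2FC -0.96, SE 0.3, adjusted p 0.538), both fibulins of elastic fibres, were lower at an unadjusted p under 0.05. Of 12 hemidesmosome and tetraspanin partners, 0 had an unadjusted p under 0.05 in that comparison.

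Several members share exons with other genes, and strand was not stated for the counting. ITGB7 shares 42.1% of its exon bases with ZNF740 on the opposite strand, which had 41.71 CPM in the controls against 1.15 CPM for ITGB7, so ITGB7 is uncertain. ITGB3 shares 51.6% of its exon bases with an unnamed gene on its own strand that had no counts in the controls. The overlaps of ITGAE, ITGA1 and LAMA5 were 6.41%, 2.56% and 1.7%, and those of ITGB1, LAMB1 and ITGA7 were under 1%.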

How the data were processed

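The authors deposited raw counts per gene for 6 RNA-seq libraries, which were used as deposited. Per their methods, reads were mapped to GRCh37 with STAR and assigned with FeatureCounts to GENCODE genes. The submitters' processing notes give STAR 2.5.2a, the methods another version. Strandedness is not given in the sources used here. Of counts from 1 to 20, 68.4% were even. Symbols came from a GENCODE annotation lifted to GRCh37, for 26966 of 27745 genes. PECAM1 is not analysed here.

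Genes with fewer than 5 counts in at least 3 of 6 samples were removed (12373), leaving 15372. The 3 groups were fitted in one model with edgeR 4.0.16 (TMM, glmQLFit, glmQLFTest, R 4.3.3), with 3 residual and 5.37 prior degrees of freedom and a common biological coefficient of variation of 27.8%. P-values were two-sided and adjusted by Benjamini-Hochberg over all genes tested. The script was tested on simulated counts. Alternatives were DESeq2 1.42.0, its size factors, no filter, edgeR's likelihood ratio test, its bias-adjusted fit, only the groups compared, CPM without length, a replicate block, and each sample left out. The genes and lists were chosen with earlier results of these data known.

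Genes named in every sample were MIR100HG, those with an unadjusted p under 0.05 for knockdown or between hairpins, those whose 4 knockdown samples lay beyond both controls, and the 10 of highest control level per length. Others were named to complete a pair or trimer, up to 4 a list by smallest p, and LAMB1, ITGA10 and ITGB8 after their values were seen. One gene of the set enters the counts and is not reported here by itself. Promoters and microRNAs were RefSeq's. Promoter windows of GRCh38.p14 were placed in GRCh37 by exact match. Replicate numbers were not taken to pair samples. Deviations from group means correlated at -0.189 (sh-TRC with sh-MIR100HG-1), 0.0873 (sh-TRC with sh-MIR100HG-2) and 0.619 (between the hairpins).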

Additional observations from a re-analysis of the deposited data

Results flagged for a closer look

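ITGB8, the β chain that with αv activates latent TGF-β, was singled out because its samples lay on opposite sides of the control in the hairpin groups. It was at 2.12 and 2.62 CPM in the controls, 0.843 and 1.94 CPM with sh-MIR100HG-1, and 2.73 and 2.68 CPM with sh-MIR100HG-2. Both sh-MIR100HG-1 samples lay below the controls and both sh-MIR100HG-2 samples above them. The difference between the hairpins was a log2FC of 0.97 (SE 0.49, unadjusted p 0.0818, adjusted p 0.555 in edgeR's quasi-likelihood test), which did not pass the test. It was 0.48 without sh-MIR100HG-1 replicate 1 and 1.69 without its replicate 2 (unadjusted p 0.02), with adjusted p from 0.388 to 0.831 over the alternatives. The 4 matches to the sh-MIR100HG-1 seed in its 3′UTR, described above, were found after its values were seen, and their part in this difference was not tested.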

How the results depend on the processing

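With 2 samples a group and 3 residual degrees of freedom, small differences are not detectable, and genes under about 1 CPM rest on few counts. Across the alternatives tried for the log2FC of the genes named, 430 of 448 values kept their direction and side of the threshold, 13 turned direction and 5 passed the threshold. Without the filter, 21349 genes were tested, the prior degrees of freedom were Inf and the coefficient of variation 30.8%, and edgeR called 392 genes for the knockdown. The likelihood ratio test called 109, DESeq2 129, and leaving out one sample 0 to 1.

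Without the filter 2 members were called for sh-MIR100HG-2 against control and 2 between the hairpins, ITGA5 in both (adjusted p 0.0007, range over alternatives up to 1.0, and adjusted p 0.00649, range up to 0.769), beside 2.42% and 3.18% of all genes. MIR100HG passed the threshold without the filter (log2FC -1.86), by the likelihood ratio test (-1.86) and by DESeq2 (-1.84, adjusted p 5.2e-07, range over alternatives from 2.77e-10 to 0.924). Members at an unadjusted p under 0.05 for the knockdown numbered 1 with DESeq2 size factors, 6 without the filter, 2 by the likelihood ratio test, 1 by DESeq2 and 1 by the bias-adjusted fit, against 0. The share of all genes was 7.64%, 9.05%, 8.52%, 8.72% and 8.23% in that order. For sh-MIR100HG-1 they numbered 2 without the filter, 2 by the likelihood ratio test, 1 by DESeq2 and 1 by the bias-adjusted fit, against 0. Of all genes, 7.69%, 7.68%, 8.35% and 7.53% did so in these settings, in that order. For sh-MIR100HG-2 the members numbered 10 without the filter, against 6, beside 9.89% of all genes.

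Leaving out one sample changed the number of members at an unadjusted p under 0.05 in every comparison. The share of all genes moved too. Such a fit leaves 1 sample in a group, so these counts are not given. The lone sample left in a group was assumed to vary like the others. Direction turned when one sample was left out for ITGA2B (log2FC -1.31 to 0.56), ITGA5 (-0.24 to 0.77), ITGA7 (-0.6 to 0.05) and LAMA3 (-0.26 to 0.00) with sh-MIR100HG-1, and for LAMC1 (-0.05 to 0.11), ITGA2 (-0.29 to 0.09) and ITGA6 (-0.5 to 0.12) for the knockdown. ITGA2B with sh-MIR100HG-1 was at 0.05 by the bias-adjusted fit. Ordered by CPM without length, ITGA3 was the first and LAMA5 the fourth of the members.

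With the replicate number as a block, 6 of 32 members had an unadjusted p under 0.05 for the knockdown, beside 10.3% of all genes. Members numbered 0 for sh-MIR100HG-1, 9 for sh-MIR100HG-2 and 6 between the hairpins, beside 9.24%, 11.9% and 13.1% of all genes. With the control numbers crossed, chosen after seeing the data, there were 5 for the knockdown, beside 1698 of the 15372 genes. That fit gave 1 for sh-MIR100HG-1, 8 for sh-MIR100HG-2 and 4 between the hairpins, beside 10.8%, 11.1% and 12.1%. Neither block called a member at the adjusted p.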
